A study of Mus musculus with 11 samples.

Results

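Pyrimidine nucleotides are built in stages, and 9 genes that encode enzymes of these stages were followed here. They were taken by symbol from the gene column of the count files, where all 9 were found among 23284 listed genes. Of these, 5 make the pyrimidine bases up to CTP (Cad, Dhodh, Umps, Ctps and Ctps2) and 4 make deoxynucleotides for DNA (Tyms, Rrm1, Rrm2 and Dtymk). The samples were 11 mouse tumors labelled SCLC, short for small cell lung cancer, which is a carcinoma of neuroendocrine cells, and they were profiled by poly(A) RNA sequencing. Tumors of both groups had the same genotype, in which the labels name Rb and p53, the doxycycline-responsive transgene TRE-MYCN and the transactivator LSL-RTTA behind a Cre-removable stop. The MYCN ON group was 7 tumors on doxycycline, and the MYCN OFF group was 4 tumors after 7 days without it. The promoter that drives Cre, the age of the animals, and whether each tumor came from its own mouse are not given in the sources used here. The p-values compare the group difference with the spread between these tumors, part of which may be technical. They treat the tumors as independent, which is therefore not known. Doxycycline and MYCN changed together, so their effects cannot be told apart.

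In the de novo pathway, Cad joins glutamine, bicarbonate and aspartate and closes the ring to dihydroorotate, Dhodh oxidizes it to orotate at the inner mitochondrial membrane, and Umps turns orotate into UMP. After phosphorylation to UTP, CTP synthase (Ctps or its paralog Ctps2) aminates UTP to CTP. Ribonucleotide reductase, made of the large subunit Rrm1 and the small subunit Rrm2, then reduces ribonucleoside diphosphates, Tyms methylates dUMP to dTMP, and Dtymk phosphorylates dTMP. Cad, Ctps and other nucleotide genes are known targets of MYC proteins, and Rrm2 and Tyms are known as genes of S phase. The question of the comparison was whether base synthesis and deoxynucleotide supply differed between tumors with MYCN on and off.

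Promoter windows from RefSeq (GRCm38.p6, 250 bases before to 50 after a start) were found for 8 of the 9 genes, in 11 windows, and Dhodh was not among them. The stretches below are shown because they hold the motifs searched for, the E-box bound by MYC-family dimers and the CCAAT box of many cell-cycle promoters. They read 5′ to 3′ on the gene's strand, with the motif in capitals. Positions give the first base of the motif relative to the start, the start being 0.
Tyms, chr5:30073661-30073706, minus strand, E-box at -61: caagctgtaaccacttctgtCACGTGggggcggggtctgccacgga
Dtymk, chr1:93802057-93802102, minus strand, E-box at -148: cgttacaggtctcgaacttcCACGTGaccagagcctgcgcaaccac
Rrm1, chr7:102441584-102441674, plus strand, CCAAT at -91 and -45: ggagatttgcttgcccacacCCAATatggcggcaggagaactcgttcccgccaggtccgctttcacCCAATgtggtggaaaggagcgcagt
Rrm2, chr12:24708184-24708228, plus strand, CCAAT at -50: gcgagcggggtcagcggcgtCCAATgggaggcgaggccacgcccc

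The E-box CACGTG, which reads the same on both strands, stood in the windows of Tyms and Dtymk and in 7.15% of all 32851 windows of that length. CCAAT, searched on both strands, stood in windows of Ctps2, Rrm1, Rrm2 and Dtymk and in 37.4% of all windows. The E2F letters TTTGGCGC, TTTCGCGC, TTTCCCGC and TTTGCCGC, on either strand, were in none of the 11 windows and in 2.26% of all. A match of letters is a description and not a binding site, and a missing match says only that those letters are not in the window.

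Reads counted under the symbol Mycn followed the labels. Counts by gene symbol cannot tell transcripts of the TRE-MYCN transgene from those of the mouse's own gene. Mycn was at 36.5 to 171 CPM (counts scaled to a common library size with TMM factors) in MYCN ON and at 5.63 to 15.7 CPM in MYCN OFF, a log2 difference of 3.06 (SE 0.47; adjusted p = 0.00139 by edgeR). Chga, which encodes the secretory granule protein chromogranin A of neuroendocrine cells, was at 98.8 to 994 CPM in MYCN ON and 225 to 1072 CPM in MYCN OFF, so this marker was detected in every library. The 12 neuroendocrine markers, Chga among them, summed to 2560 to 4389 CPM in MYCN ON and 2030 to 8923 CPM in MYCN OFF. Of these 12, edgeR called 1 higher and 2 lower in MYCN ON, which is 25% against 29.4% of all genes. Reads over genes numbered 8951733 to 13123838 per tumor, and the 9 enzymes together held 4998 to 20442 of them. Lung tissue was unevenly spread: Sftpc, the surfactant gene of alveolar type II cells, was above 100 CPM in MYCN OFF tumors 1, 3 and 4 and MYCN ON tumors 3 and 5, here called lung-containing, and at most 5.86 CPM in the rest. The 12 lung markers summed to 6.91 to 3449 CPM in MYCN ON and 40.9 to 33640 CPM in MYCN OFF, and 12 immune markers to 174 to 750 and 312 to 5557 CPM. MYCN OFF tumor 2 was poor in lung markers but held the highest sum of 10 skeletal muscle markers, 540 CPM against at most 129 CPM elsewhere. Alignments to several places, which were not counted, made up 13.8% to 20.9% of records in MYCN ON and 9.15% to 11.9% in MYCN OFF. The part of these differences in the results below was not tested beyond the values given. In bulk RNA, fewer tumor cells and less RNA per cell cannot be told apart.

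Most of the enzyme genes were higher in MYCN ON, by unequal amounts. Of the 9 enzymes, 6 were higher in MYCN ON and 0 lower at an adjusted p below 0.05 (edgeR quasi-likelihood test, Benjamini-Hochberg over 15237 genes). In the same fit 29.4% of all genes tested were called, 16% higher and 13.4% lower. The called enzymes were Cad, Umps, Ctps, Ctps2, Tyms and Rrm1, and those not called were Dhodh, Rrm2 and Dtymk. The median log2 fold change of MYCN ON over MYCN OFF was 0.87 over the 9 enzymes and 0.0023 over all genes. In 4 enzymes (Umps, Ctps, Ctps2 and Rrm1) every MYCN ON tumor lay above every MYCN OFF tumor, and in 0 every MYCN ON tumor lay below. Over all genes tested the groups were apart in 16.8%, with MYCN ON above in 11.4% and below in 5.41%. Scaling by library totals moved the median gene by -0.31, and Dhodh was the enzyme whose sign it turned.

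**Figure D1:**
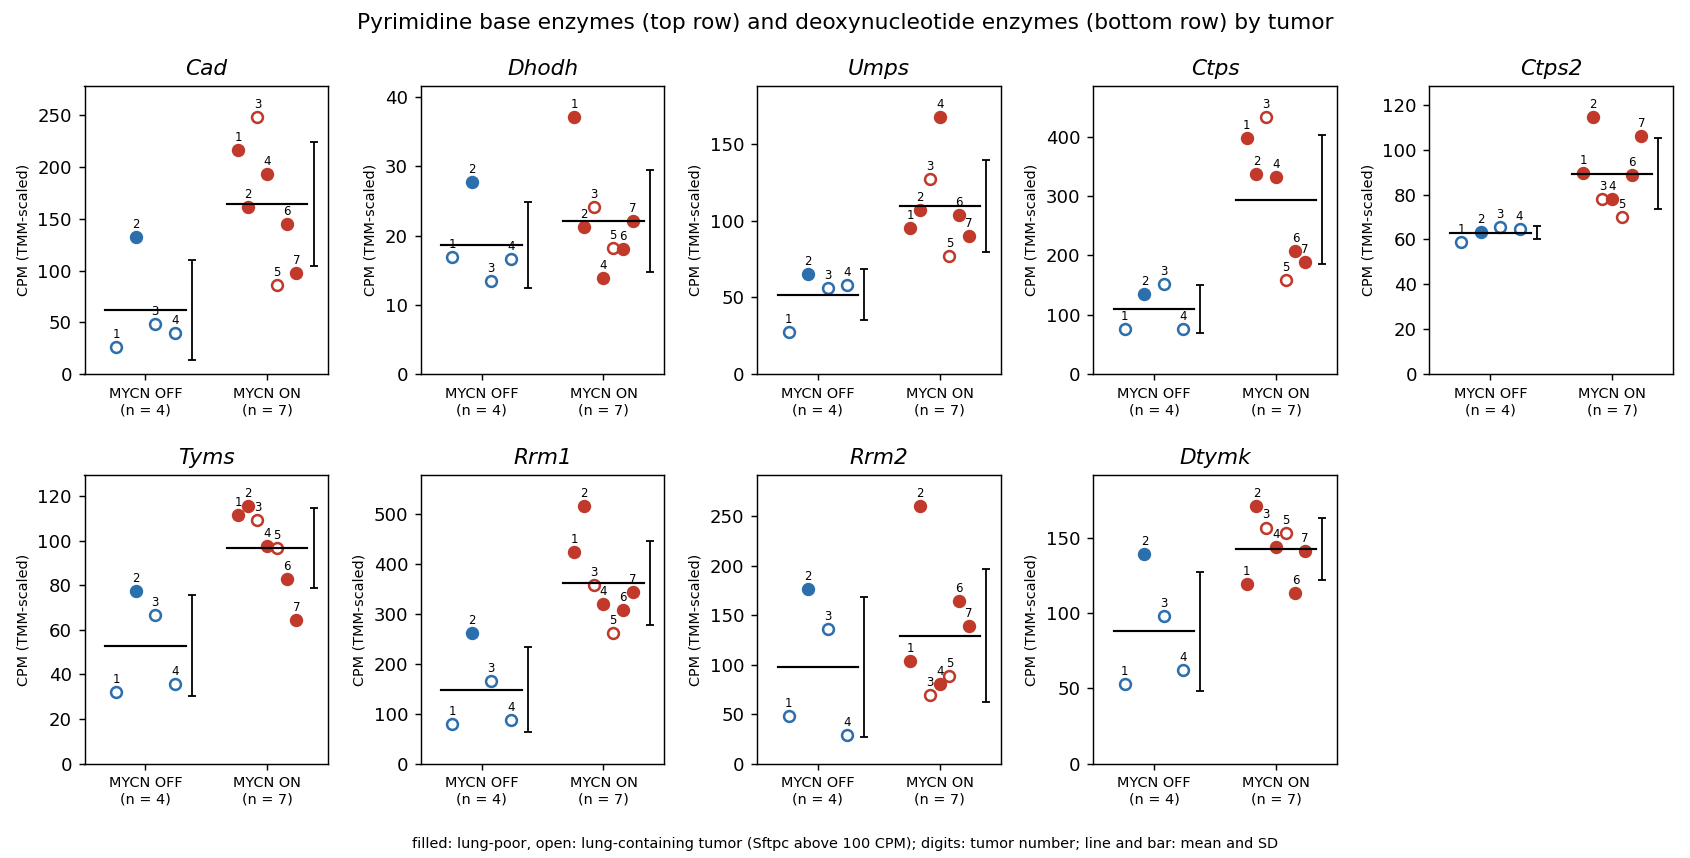
TMM-scaled CPM of each enzyme gene (y axis, from 0) in the 4 MYCN OFF and 7 MYCN ON tumors, numbered, with open circles for lung-containing tumors and the mean and SD as line and bar. The groups do not overlap for Umps, Ctps, Ctps2 and Rrm1, and MYCN OFF tumor 2 lies among the MYCN ON tumors for Cad, Dhodh, Tyms, Rrm2 and Dtymk.

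Cad, the enzyme that begins the pathway, was 2.66-fold higher in MYCN ON. MYCN ON tumors ranged from 86.1 to 249 CPM with a median of 162 CPM, and MYCN OFF tumors 1 to 4 were at 26.6, 133, 48.1 and 39.9 CPM. MYCN OFF tumor 2 stood apart from the other MYCN OFF tumors and above MYCN ON tumors 5 and 7, so the groups overlapped. This was a log2 difference of 1.41 (SE 0.45; adjusted p = 0.0338 by edgeR). The call was lost when any of MYCN ON tumors 1, 2, 3 or 4 or MYCN OFF tumors 1, 3 or 4 was left out (log2 fold change 1.16 to 1.41), and without MYCN OFF tumor 2 the difference was 2.11 (adjusted p = 0.00316). In the lung-containing tumors Cad was at 86.1 to 249 CPM in MYCN ON and 26.6 to 48.1 CPM in MYCN OFF.

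Dhodh, the mitochondrial step, was not called. Its level was 13.9 to 37.2 CPM in MYCN ON, with a median of 21.2 CPM, and MYCN OFF tumors 1 to 4 were at 16.9, 27.7, 13.5 and 16.6 CPM. Only MYCN ON tumor 1 lay above all MYCN OFF tumors, and MYCN OFF tumor 2 lay above 6 of the 7 MYCN ON tumors. MYCN ON minus MYCN OFF was 0.24 on the log2 scale (SE 0.29; adjusted p = 0.554), -0.068 with library totals as the scaling and -0.0031 without MYCN ON tumor 1. It was also the gene of the 9 with the lowest level in MYCN ON per length, at 10.8 ± 3.64 CPM per kilobase (SD, n = 7).

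Umps, which completes UMP, was 2.11-fold higher in MYCN ON. Levels were 76.7 to 168 CPM in MYCN ON, with a median of 104 CPM, and MYCN OFF tumors 1 to 4 were at 27.8, 65.3, 56.2 and 57.9 CPM. No MYCN OFF tumor reached the lowest MYCN ON tumor, which was the lung-containing tumor 5. On the log2 scale this was 1.08 (SE 0.27; adjusted p = 0.0125 by edgeR), and the call held with each tumor left out in turn (0.88 to 1.22). The lung-poor MYCN OFF tumor 2, at 65.3 CPM, was below the 89.8 to 168 CPM of the lung-poor MYCN ON tumors.

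Ctps was 2.67-fold higher in MYCN ON, and its paralog Ctps2 was 1.42-fold higher. Ctps was at 158 to 433 CPM in MYCN ON, with a median of 333 CPM, and at 75.4, 136, 152 and 76.0 CPM in MYCN OFF tumors 1 to 4. The lowest MYCN ON tumor, 5, and the highest MYCN OFF tumor, 3, were close, and both were lung-containing. For Ctps the log2 difference of 1.42 (SE 0.34; adjusted p = 0.0104 by edgeR) stayed called with each tumor left out (1.25 to 1.62). Ctps2 was at 70.2 to 115 CPM in MYCN ON, with a median of 88.9 CPM, and at 58.7, 63.4, 65.4 and 64.7 CPM in MYCN OFF. Its MYCN OFF values were the tightest of the 9 genes, with a coefficient of variation of 4.82%. For Ctps2 the log2 difference of 0.50 (SE 0.16; adjusted p = 0.034) rested on the scaling and on single tumors. It was 0.42 with RLE factors (adjusted p = 0.055), 0.28 after upper quartile scaling and 0.18 for library totals, and the call was lost without any of MYCN ON tumors 1, 2, 3, 6 or 7 or MYCN OFF tumors 1, 3 or 4.

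Among the deoxynucleotide enzymes, Rrm1 had the largest difference, at 2.44-fold. MYCN ON tumors ranged from 263 to 517 CPM with a median of 345 CPM, and MYCN OFF tumors 1 to 4 were at 80.2, 262, 165 and 87.6 CPM. The groups met without overlap, since MYCN OFF tumor 2 lay just under MYCN ON tumor 5 (261.5 against 262.7 CPM). The log2 difference of 1.28 had an SE of 0.33 and an adjusted p of 0.0143 by edgeR, and the call held with each tumor left out (1.08 to 1.72).

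Rrm2, the small subunit that is limiting in S phase, was not called. Across MYCN ON it spanned 69.5 to 260 CPM, with a median of 104 CPM, and MYCN OFF tumors 1 to 4 were at 48.2, 177, 137 and 28.7 CPM. Both groups were wide, with coefficients of variation of 51.6% and 72.4%, and MYCN OFF tumors 2 and 3 lay above 6 and 4 of the 7 MYCN ON tumors. Its log2 difference was 0.41 (SE 0.50; adjusted p = 0.559 by edgeR). Without MYCN OFF tumor 2 it was 0.87 and without MYCN OFF tumor 4 it was 0.11, with no call in either fit. Adding the mean of the lung markers as a covariate turned the sign, to -0.29.

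Tyms, thymidylate synthase, was 1.83-fold higher in MYCN ON. Values in MYCN ON were 64.6 to 115 CPM with a median of 97.6 CPM, and MYCN OFF tumors 1 to 4 were at 32.0, 77.6, 66.5 and 35.6 CPM. MYCN ON tumor 7 lay below MYCN OFF tumors 2 and 3, and the other MYCN ON tumors lay above all of MYCN OFF. On the log2 scale Tyms differed by 0.87 (SE 0.27; adjusted p = 0.0301 by edgeR), and the call was lost without any of MYCN ON tumors 1, 2 or 3 or MYCN OFF tumors 1 or 4 (0.69 to 0.82).

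Dtymk, thymidylate kinase, missed the threshold narrowly. Dtymk stood at 113 to 171 CPM in MYCN ON with a median of 144 CPM, and MYCN OFF tumors 1 to 4 were at 52.6, 139, 97.6 and 61.9 CPM. MYCN OFF tumor 2 lay above MYCN ON tumors 1 and 6. A log2 difference of 0.70 (SE 0.25) had an adjusted p of 0.0536 by edgeR. DESeq2 (0.63, adjusted p = 0.0361) and limma voom (0.80, adjusted p = 0.028) called it, and so did edgeR without MYCN OFF tumor 2 (1.02, adjusted p = 0.0066).

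The split between called and uncalled enzymes did not follow the border between base and deoxynucleotide synthesis. Calls went to 4 of 5 base enzymes and 2 of 4 deoxynucleotide enzymes, against 29.4% of all genes. Mean log2 CPM of the base enzymes was 6.6 ± 0.32 (SD, n = 7) in MYCN ON and 5.64 ± 0.43 (n = 4) in MYCN OFF, a difference of 0.96. That of the deoxynucleotide enzymes was 7.27 ± 0.26 and 6.32 ± 0.81, a difference of 0.95. Within a tumor, the base mean minus the deoxynucleotide mean was -1.08 to -0.25 in MYCN ON and -1.09 to -0.10 in MYCN OFF, so the ranges overlapped, with MYCN OFF tumor 4 above every MYCN ON tumor. These means over chosen genes are descriptions and were not tested.

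**Figure D2:**
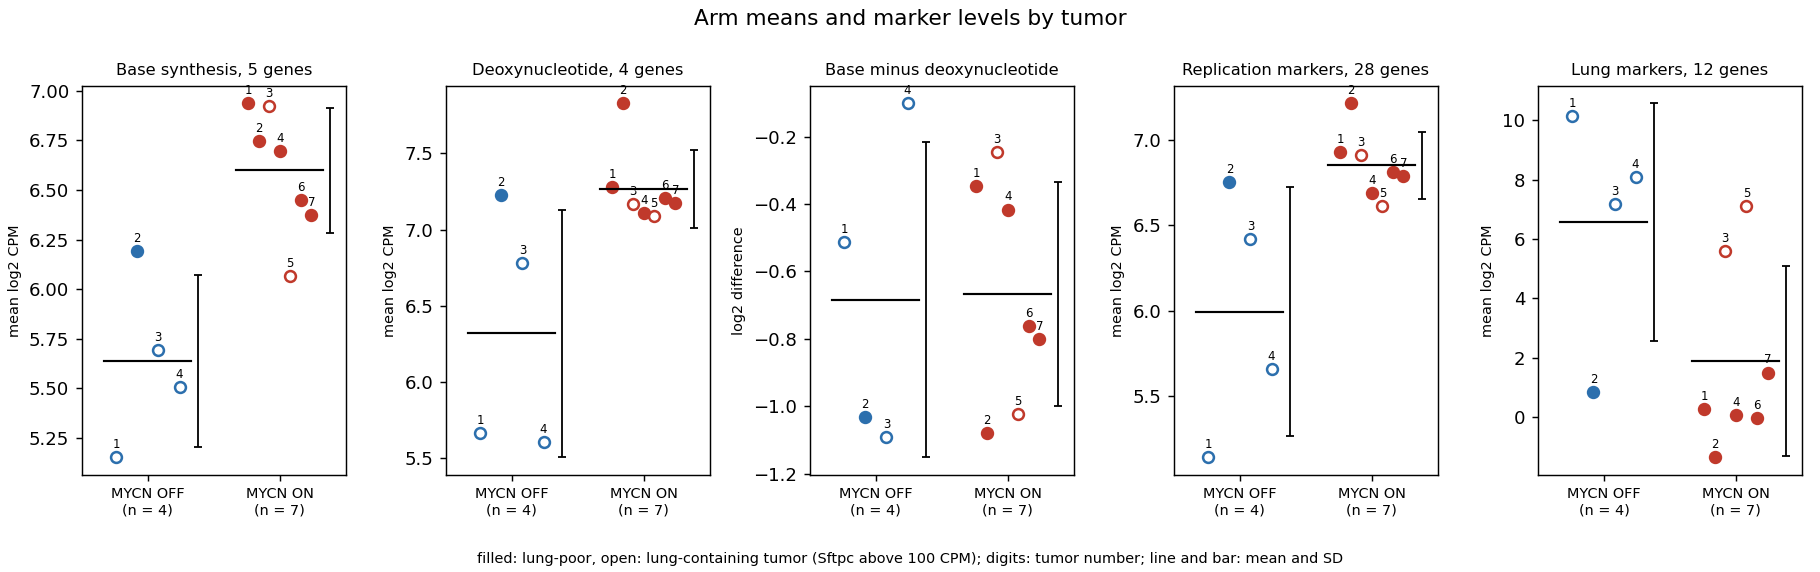
Mean log2 CPM per tumor (y axes; the third panel is a log2 difference) of the base enzymes, the deoxynucleotide enzymes, their difference, 28 replication markers and 12 lung markers, with open circles for lung-containing tumors and the mean and SD as line and bar. The base minus deoxynucleotide values overlap between the groups, and MYCN OFF tumors 1 and 4 are the lowest of the 11 tumors in the base, deoxynucleotide and replication panels.

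The means of both arms were lowest in the MYCN OFF tumors that were lowest in replication markers, tumors 1 and 4. The replication mean (28 genes such as Pcna and the Mcm helicase subunits, no enzyme of the 9 among them) was 6.61 to 7.22 in MYCN ON. In MYCN OFF tumors 1 to 4 it was 5.14, 6.75, 6.42 and 5.66, the base mean was 5.15, 6.19, 5.69 and 5.50, and the deoxynucleotide mean was 5.66, 7.22, 6.78 and 5.61. Tumors 1 and 4, lowest in these markers, were also the highest in lung markers. Of the replication markers themselves, 8 of 28 were higher in MYCN ON and 0 lower, with a median log2 fold change of 0.80. That is 28.6% called higher, where 16% of all genes were called higher and 29.4% in either direction. DESeq2 called 13 of the 28 markers and limma voom 14, all higher. Of 20 mitosis markers such as Mki67 and Top2a, edgeR called 9 higher and 0 lower, with a median log2 fold change of 1.23. DESeq2 called 12 of these 20 and limma voom 16, all higher. Over all genes DESeq2 called 2664 higher and 2925 lower, and limma voom 2515 higher and 1844 lower.

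With the replication mean as a covariate, edgeR called 0 of the 9 enzymes, with 1 at an unadjusted p below 0.05. In that fit 8% of all genes were called, and 3585 of 15237 had an unadjusted p below 0.05. The adjusted log2 fold changes were 0.79 for Ctps, 0.69 for Umps, 0.54 for Cad, 0.46 for Rrm1, 0.25 for Tyms, 0.13 for Dtymk and -0.65 for Rrm2. With the lung marker mean as the covariate edgeR also called 0 of the 9, with 5 at an unadjusted p below 0.05. In the lung fit 11.3% of all genes were called, and 4072 of 15237 had an unadjusted p below 0.05. The log2 fold changes there were 1.19 for Ctps, 1.06 for Cad, 0.87 for Rrm1 and 0.83 for Umps. The DESeq2 and limma voom fits were made without covariates, and each called 7 of the 9. Over all genes DESeq2 called 5589 and limma voom 4359, beside 4475 by edgeR without covariates. Within the lung-containing tumors (2 MYCN ON, 3 MYCN OFF), every MYCN ON value lay above every MYCN OFF value for all enzymes except Rrm2. Among the lung-poor tumors (5 MYCN ON, 1 MYCN OFF), MYCN OFF tumor 2 lay below all 5 MYCN ON tumors for Umps, Ctps, Ctps2 and Rrm1. The share of all genes apart in this way was not counted in either set of tumors. With so few tumors, these separations are descriptions only. In the lung-poor comparison, added after seeing the data, the log2 differences were 1.08 for Ctps, 0.76 for Umps, 0.57 for Ctps2, 0.52 for Rrm1, 0.27 for Cad, 0.26 for Tyms, -0.040 for Dtymk, -0.26 for Rrm2 and -0.33 for Dhodh. With 1 MYCN OFF tumor, assumed to vary like the others, a missing call says little here: 0 of the 9 enzymes and 0 of the other pathway genes were called by edgeR. In the lung-containing tumors alone the log2 differences were 2.15 for Cad, 1.57 for Ctps, 1.51 for Rrm1, 1.22 for Tyms, 1.15 for Dtymk, 1.13 for Umps, 0.46 for Dhodh, 0.26 for Ctps2 and 0.17 for Rrm2, also with 0 called by edgeR, while DESeq2 called 5 and limma voom 0. The share of all genes called was not counted in these smaller sets, so the calls there have no background to be read against. The difference between these comparisons was not tested.

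**Figure D3:**
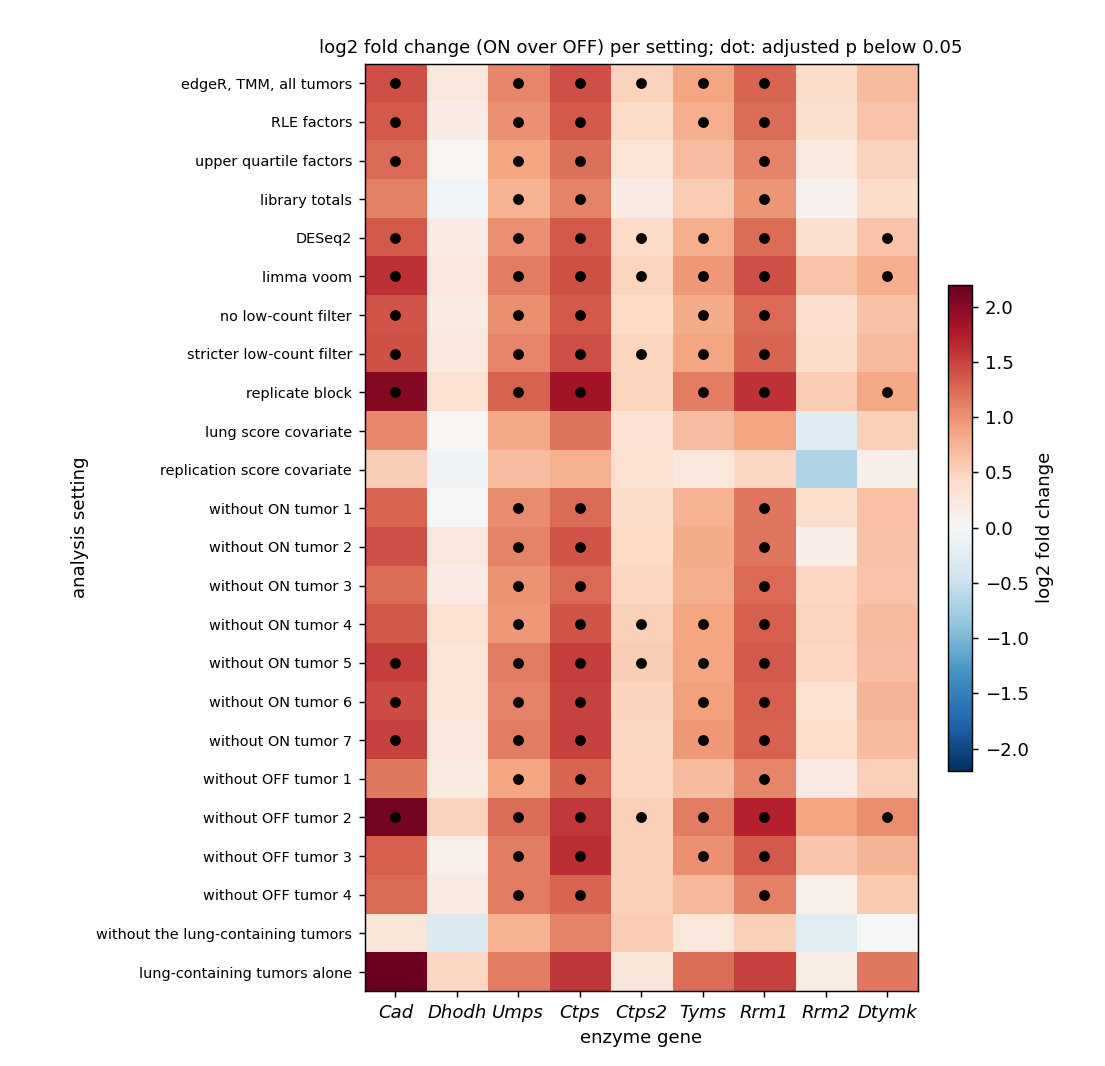
Log2 fold change of MYCN ON over MYCN OFF (color) for each enzyme gene (x axis) under each analysis setting (y axis), with a dot where the adjusted p was below 0.05. Umps, Ctps and Rrm1 are called in 19 of 21 settings fixed with the design, all but those with a marker covariate, while Dhodh and Rrm2 are called in 0.

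Ratios within a tumor do not depend on the scaling between libraries, and 5 enzyme pairs were compared with exact permutation tests, two-sided, over the 330 ways to choose 4 of 11 tumors (smallest possible p = 0.00303). None passed at an adjusted p of 0.05 over the 5 ratios, which, like the genes, were chosen with earlier results known. The log2 ratio of Cad to Dhodh, successive steps of the pathway, was 2.85 ± 0.59 (SD, n = 7) in MYCN ON and 1.49 ± 0.69 (n = 4) in MYCN OFF. The difference of 1.36 had an exact permutation p of 0.0121 and an adjusted p of 0.0606. Ctps over Ctps2 was 1.64 ± 0.61 against 0.72 ± 0.50, a difference of 0.91 (exact permutation p = 0.0333, adjusted 0.0833). The pair Cad and Dhodh passed without MYCN ON tumor 7 (adjusted exact p = 0.0357) or MYCN OFF tumor 2 (adjusted exact p = 0.0417), and Ctps and Ctps2 passed without MYCN ON tumor 7 (adjusted exact p = 0.0357).

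The balance of the subunits of ribonucleotide reductase did not pass the test. Rrm2 over Rrm1 was -1.59 ± 0.56 in MYCN ON (n = 7) and -0.79 ± 0.57 in MYCN OFF (n = 4), a log2 difference of -0.80 (exact permutation p = 0.0576, adjusted 0.096). Per kilobase of exon, the level of Rrm1 was 90.6 ± 21.1 CPM and that of Rrm2 59.1 ± 30.5 CPM in MYCN ON. In MYCN OFF they were 37.2 ± 21.1 and 44.5 ± 32.2 CPM per kilobase, which overlapped widely. Rrm2b, the p53-inducible small subunit used outside S phase, was at 35.1 ± 4.38 CPM in MYCN ON and 47.7 ± 12.2 CPM in MYCN OFF and missed the call at -0.44 on the log2 scale (adjusted p = 0.0784). Rrm2 over Rrm2b was 1.75 ± 0.70 and 0.70 ± 1.48 (n = 7 and 4, exact permutation p = 0.142), and Cad over Rrm2 was 0.39 ± 0.98 and -0.57 ± 0.83 (n = 7 and 4, exact permutation p = 0.136, adjusted 0.142 for each).

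**Figure D4:**
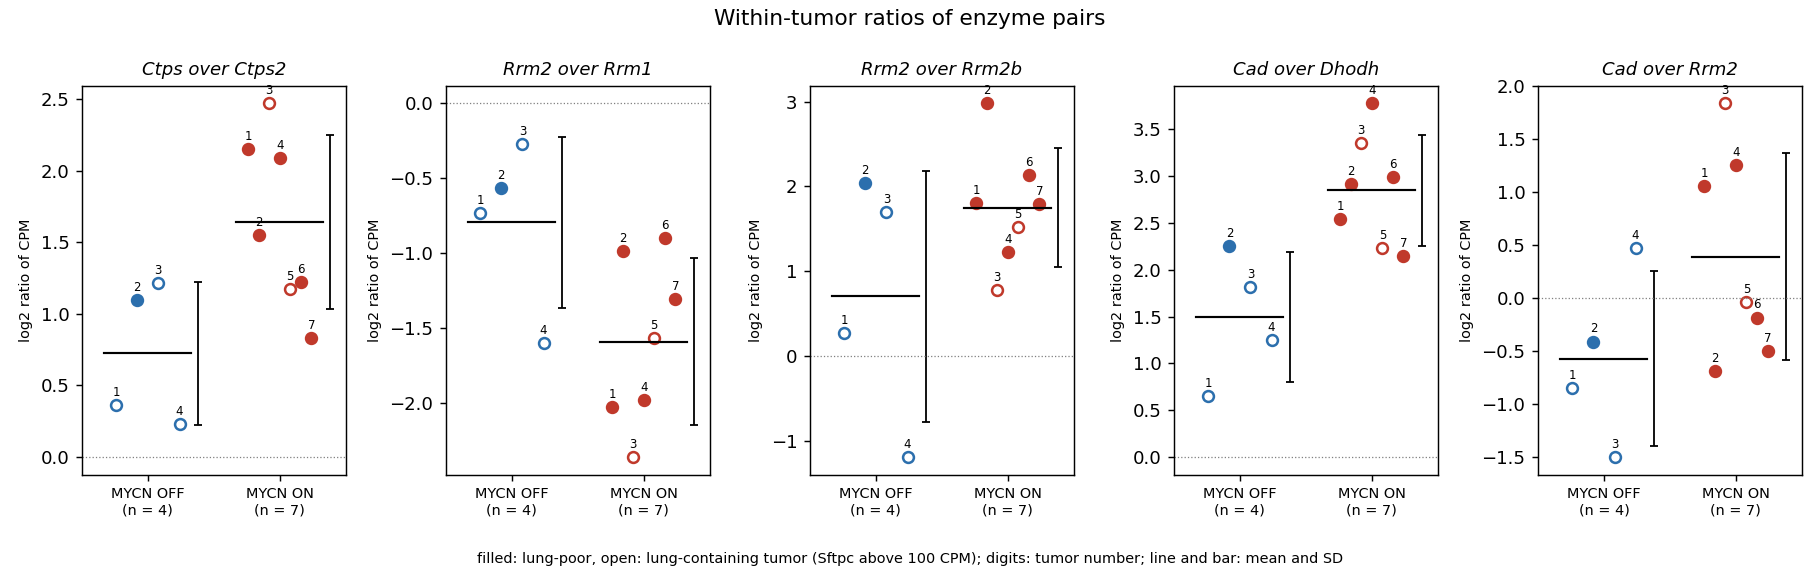
Log2 ratio of CPM within each tumor (y axes) for 5 enzyme pairs, with open circles for lung-containing tumors and the mean and SD as line and bar. Cad over Dhodh has 5 of 7 MYCN ON tumors above every MYCN OFF tumor, and no MYCN ON tumor exceeds the highest MYCN OFF value of Rrm2 over Rrm1.

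Levels between genes were ordered per kilobase of exon. In MYCN ON, Ctps led at 108 ± 40.1 CPM per kilobase (SD, n = 7), followed by Rrm1 at 90.6 ± 21.1, Dtymk at 62.8 ± 9.02 and Rrm2 at 59.1 ± 30.5. Umps, Tyms, Ctps2 and Cad lay between 31.4 and 22.6 CPM per kilobase. Steps between neighbors in this order were larger than the SD of both genes from Rrm1 to Dtymk, from Tyms to Ctps2 and from Cad to Dhodh. The other neighbors did not differ beyond the spread of at least 1 of the pair.

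Pyrimidine genes around these enzymes were called in both directions, more of them higher than lower. Of 39 genes on 4 lists, 37 could be tested. Calls were 13 higher and 4 lower in MYCN ON, which is 45.9% against 29.4% of all genes. Of all genes 16% were called higher and 13.4% lower, so lower calls were no more frequent among these 37 than over all genes. None of the 4 lower calls was kept with the lung or the replication covariate, where calls were 11 and 6 higher and 0 lower. Salvage had 1 of 11 tested genes higher and 3 lower, with a median log2 fold change of -0.09. Deoxynucleotide interconversion and balance had 7 of 12 higher and 1 lower (median 0.92). The folate cycle that feeds Tyms had 5 of 8 higher and 0 lower (median 0.99). In breakdown 0 of 6 tested genes were called by edgeR, with 1 at an unadjusted p below 0.05, and 0 were called by DESeq2 and by limma voom. De novo purine synthesis, the closest comparable pathway, had 8 of 13 higher and 0 lower (median 1.11).

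**Figure D5:**
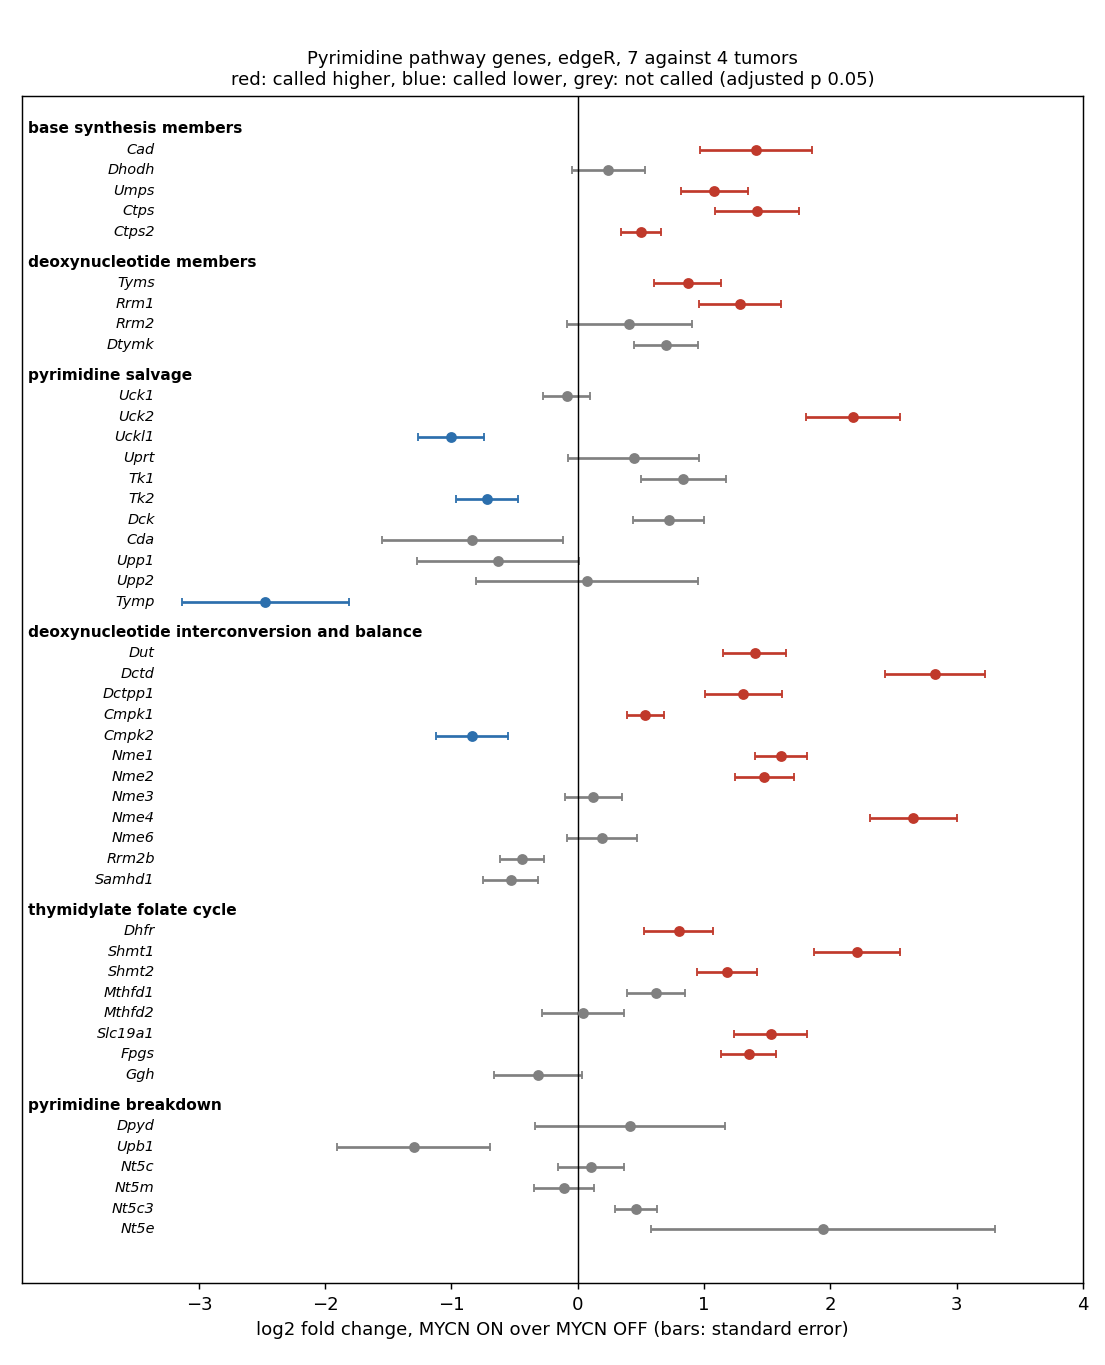
Log2 fold change of MYCN ON over MYCN OFF (x axis) with its standard error for the 9 enzymes and 37 tested pathway genes, grouped by role; red marks genes called higher, blue genes called lower and grey genes not called. Dctd, at 2.83, lies farthest to the right and Tymp, at -2.48, farthest to the left.

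Salvage genes of the uridine-cytidine kinase family differed among themselves. Uck2, a uridine-cytidine kinase, was at 38.1 to 125 CPM in MYCN ON (median 62.7) and at 12.6, 23.3, 20.8 and 14.4 CPM in MYCN OFF tumors 1 to 4, a log2 difference of 2.18 (SE 0.37; adjusted p = 0.00213 by edgeR). Its homolog Uckl1 was lower in MYCN ON, at 12.2 to 26.7 CPM against 28.6 to 49.7 CPM (-1.0 on the log2 scale, SE 0.26, adjusted p = 0.0147). The groups did not overlap for Uck2 or Uckl1. Uck1, named after its value was seen, was at 44.3 to 80.6 CPM against 51.0 to 79.0 CPM and was not called (-0.086, adjusted p = 0.754). Tymp, which degrades thymidine, was also lower (-2.48, SE 0.66, adjusted p = 0.0174), at 0.272 to 2.26 CPM against 16.7, 2.38, 2.23 and 3.0 CPM. Its highest value was in the lung-richest tumor, MYCN OFF tumor 1, and with the lung covariate the call was lost (-1.37, adjusted p = 0.274), as was that of Uckl1 (-1.16, adjusted p = 0.0609). The thymidine kinases were named after their values were seen: mitochondrial Tk2 was lower (-0.72, adjusted p = 0.0455), in 4 of 11 fits with a tumor left out and not with the lung covariate (-0.43, adjusted p = 0.401), and cytosolic Tk1, a gene of S phase, was not called (0.84, adjusted p = 0.0796).

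The 3 interconversion genes with the smallest p were all higher in MYCN ON. Dctd, the dCMP deaminase that makes dUMP for Tyms, was at 15.6 to 47.1 CPM in MYCN ON (median 28.4) and at 3.52, 5.75, 5.20 and 1.88 CPM in MYCN OFF tumors 1 to 4. Every MYCN ON tumor was above every MYCN OFF tumor, tumor 2 included, which was 2.83 on the log2 scale (SE 0.39; adjusted p = 9.4e-04 by edgeR). Nme4, the mitochondrial nucleoside diphosphate kinase, was at 10.7 to 22.8 CPM against 1.69 to 3.67 CPM (2.66, SE 0.34, adjusted p = 6.5e-04). Nme1, a cytosolic kinase of that family, was at 228 to 339 CPM against 70.4 to 126 CPM (1.61, SE 0.20, adjusted p = 6.2e-04), and its neighbor Nme2 is nearly identical, so reads between them are uncertain. Cmpk2, the mitochondrial UMP-CMP kinase known as an interferon-induced gene and named after its value was seen, was the gene of this list that was lower (-0.84, adjusted p = 0.0455), in 3 of 11 fits with a tumor left out and not with the lung covariate (-0.74, adjusted p = 0.215). Also named after their values were seen, Nme3 (0.12, adjusted p = 0.705) and Nme6 (0.20, adjusted p = 0.621) of the same kinase family were not called.

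Folate genes that serve thymidylate synthesis rose in MYCN ON at uptake, retention and carbon supply. Slc19a1, the reduced folate carrier, was at 25.5 to 52.5 CPM against 7.84 to 17.4 CPM (1.53 on the log2 scale, SE 0.29, adjusted p = 0.00347 by edgeR). Fpgs, which retains folates by adding glutamates, was at 27.0 to 50.3 CPM against 12 to 15.9 CPM (1.35, SE 0.22, adjusted p = 0.00164). Shmt1, the cytosolic enzyme that loads carbon from serine, was at 57.7 to 91.9 CPM against 9.66 to 32.4 CPM (2.21, SE 0.34, adjusted p = 0.00144). The list was not uniform, with 5 of 8 genes called higher and 3 not called. Those 3, named after their values were seen, were Mthfd1 (0.62, adjusted p = 0.0607 by edgeR), Mthfd2 (0.042, adjusted p = 0.933) and Ggh (-0.32, adjusted p = 0.518). Dctd, Nme1, Nme2, Nme4, Shmt1 and Fpgs were the 6 genes of the 4 lists still called with the replication mean as a covariate, and all 6 also held with each tumor left out in turn.

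No breakdown gene was called. Nt5c3, a pyrimidine nucleotidase, was at 64.5 to 107 CPM against 57.8 to 65.9 CPM (log2 fold change 0.46, adjusted p = 0.0528). Upb1, the last enzyme of uracil breakdown, was at 0.906 to 6.05 CPM against 4.0 to 16.5 CPM (-1.30, adjusted p = 0.121). Nt5e, the surface nucleotidase CD73, spanned 1.63 to 219 CPM within MYCN ON (1.94, SE 1.36, adjusted p = 0.299).

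The genes with the most similar profile over the 11 tumors differed by enzyme. Likeness was the root mean square difference in log2 CPM after centering each gene, among 13640 genes. Nearest to Cad were Ammecr1 (0.25) and Msi1 (0.30), to Umps the helicase subunit Mcm4 (0.16) and the translation factor Eif4g1 (0.18), and to Ctps the translation factor subunit Eif2b3 (0.21) and Rlf (0.22). Nearest to Tyms were the spindle checkpoint gene Bub3 (0.14) and the salvage kinase Dck (0.17), to Rrm1 the nuclear pore gene Nup107 (0.17) and the chromatin assembly gene Chaf1a (0.20), and to Dtymk the cohesin gene Rad21 (0.13) and Tcf3 (0.14). Dhodh lay nearest to the RNA helicases Ddx49 (0.16) and Dhx38 (0.17), and Ctps2 to Gtf2a1 (0.12) and Rnf11 (0.12). Rrm2 had Usp51 (0.27) and Jam3 (0.32) as its nearest genes. Among the enzymes themselves, Tyms and Dtymk were the closest pair (0.25) and Cad and Rrm2 the farthest (0.96).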

How the data were processed

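Per the labels' protocols, RNA was extracted in TRIzol, captured by oligo-dT and turned into libraries by an NEBNext Ultra kit. The submitters' processing notes name bcl2fastq 1.8.4, TopHat2 2.0.8b, HTSeq 0.6.1 and the build mm9. The annotation and strand setting are not given in the sources used here, and reads of overlapping or antisense genes may be mixed. Each of the authors' files holds raw counts by gene symbol, deposited without normalization; the 5 summary rows (no annotated gene, 14.8% to 21.5% of records) stayed out of library sizes and tests. In R 4.3.3, edgeR 4.0.16 tested MYCN ON against MYCN OFF after filterByExpr (minimum count 10, minimum total 15) with TMM factors, robust quasi-likelihood tests and Benjamini-Hochberg adjustment over 15237 genes. Standard errors were taken from the F statistic (absolute log2 difference over root F). Log2 CPM used a prior count of 2. Exon lengths came from GENCODE M21 and serve for length only. Alternatives used DESeq2 1.42.0 and limma 3.58.1, other scalings and filters, covariates, the replicate block and each tumor left out. The script was tested on simulated data. Members and lists were chosen with earlier results of these data known. Named genes were the 9 enzymes, Mycn, Rrm2b, the 3 genes with the smallest p in each pathway list and the 2 nearest genes of each enzyme; exceptions are marked. Tumors within a group all differed by more than sampling noise (smallest chi-square per gene 50.5). The spread between tumors, a biological coefficient of variation of 53.7%, limits precision more than depth.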

Additional observations from a re-analysis of the deposited data

How the results depend on the processing

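Umps, Ctps and Rrm1 kept their direction in all 21 alternatives fixed with the design and lost their call only with the 2 covariates. Members called numbered 6, against 3 with library totals, 3 to 7 with a tumor left out, and 0 with the lung or the replication covariate. Base enzymes called were 4, against 2 with library totals, 2 to 4 with a tumor left out and 0 with either covariate. Deoxynucleotide enzymes called were 2, against 1 with upper quartile factors or library totals, 1 to 3 with a tumor left out and 0 with either covariate. Other pathway genes called were 17, against 11 with the lung covariate, 6 with the replication covariate and 12 to 18 with a tumor left out. Calls over all genes were 4475, against 1729 and 1219 with these covariates and 2862 to 5393 with a tumor left out. Calls higher in MYCN ON were 54.5% of all calls with TMM, 48.0% with RLE, 37.0% after upper quartile scaling and 28.2% for library totals; the last 2 moved the median gene by -0.21 and -0.31. Without the lung-containing tumors (5 against 1) and in them alone (2 against 3), both added after seeing the data, edgeR called 0 enzymes and 0 other pathway genes; 0 and 6 enzymes had an unadjusted p below 0.05, and DESeq2 called 0 and 5, limma voom 0 and 0. The lone tumor of a group is there assumed to vary like the other group. Calls over all genes were not counted in these smaller sets. Signs turned for Dhodh with library totals (-0.068), with the replication covariate (-0.085), without MYCN ON tumor 1 (-0.0031, up to 0.51 with another tumor left out) and without the lung-containing tumors (-0.33), for Rrm2 with the lung (-0.29) and replication covariates (-0.65) and without those tumors (-0.26), and for Dtymk without them (-0.040); the cause was not tested. With a tumor left out, the difference in log2 ratio was 0.75 to 1.08 for Ctps/Ctps2, 1.08 to 1.61 for Cad/Dhodh, -1.07 to -0.62 for Rrm2/Rrm1, 0.41 to 1.49 for Rrm2/Rrm2b and 0.66 to 1.31 for Cad/Rrm2. Tumors of the same number share only a number: their deviations correlated at -0.16, 0.46, -0.08 and 0.26 for numbers 1 to 4, and not every tumor correlated best with its own. With the replicate block, 6 members and 14 other pathway genes (13 higher, 1 lower) were called. In that fit 3024 of all 15237 genes were called, 1872 higher and 1152 lower. There Ctps2 lost its edgeR call (adjusted p = 0.112) and Dtymk gained a call (adjusted p = 0.0454).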

Other observations

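The MYCN ON tumors differed among themselves in the balance of Cad and Rrm2. Cad was at 217, 249 and 193 CPM in MYCN ON tumors 1, 3 and 4, and Rrm2 at 104, 69.5 and 80.9 CPM, so that the log2 ratio of Cad to Rrm2 was 1.06, 1.84 and 1.26. In MYCN ON tumors 2, 5, 6 and 7 the ratio was -0.69, -0.04, -0.18 and -0.50. Mycn was at 171, 125 and 109 CPM in tumors 1, 3 and 4 and at 59.6, 36.5, 140 and 70.3 CPM in tumors 2, 5, 6 and 7. These values carry no test, since the tumors have no label that separates them and are sorted here by the ratio itself.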
